A study of Homo sapiens with 18 samples.

Results

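The RNA of 10 genes of ER-associated degradation was followed through a polyadenylated RNA sequencing series on L3.6pl, a line of human pancreatic cancer cells. They were HERPUD1, SEL1L, SYVN1, EDEM1, EDEM2, EDEM3, DERL1, DERL2, DERL3 and OS9, taken by name as 10 of the 26485 genes in the table of normalized counts; 9 of the 10 were abundant enough to be tested, and DERL3 was not. The 6 groups held 3 libraries each. GemR siSTIM1 cells were a gemcitabine-resistant derivative of L3.6pl kept in 64 nM gemcitabine, given an siRNA against STIM1 for 48 h, and then 500 nM thapsigargin or the vehicle DMSO for 3 h. GemR siCont cells were the same derivative in the same drug with a control siRNA, and also had thapsigargin or vehicle. Par siCont cells were the parental line with the control siRNA and thapsigargin or vehicle, and no gemcitabine is named for them. Every group therefore carried an siRNA transfection. GemR is a single derivative, so resistance, exposure to the drug and any other difference between GemR and Par cannot be told apart. A single siSTIM1 condition is named, so loss of STIM1 and other effects of that siRNA cannot be told apart either. The labels number the replicates without saying whether they were separate cultures, so the p-values measure the spread between these libraries, which may be technical. In bulk RNA, fewer cells that express a gene and less RNA per cell cannot be told apart.

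ER-associated degradation removes proteins that fail to fold in the endoplasmic reticulum (ER). Lectins and mannose-trimming enzymes pick the misfolded glycoproteins, a membrane complex built around a ubiquitin ligase passes them into the cytosol, and the ATPase VCP and the proteasome finish the work. Thapsigargin blocks the SERCA calcium pump, which empties the ER calcium store and starts the unfolded protein response, and the transcription factors of that response, XBP1, ATF6 and ATF4, are known to act on many degradation genes. STIM1 is the ER calcium sensor that opens calcium channels of the plasma membrane when the store is empty.

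The promoters are shown because the members moved together to very different extents, and binding elements of the unfolded protein response are known from this gene family. RefSeq windows of GRCh38.p14, from 250 bases before to 50 bases after the start site, were matched for 8 of the 10 genes, the exceptions being DERL1 and DERL3. Searched on both strands, the ERSE-II element (ATTGG and CCACG with 1 base between them) stood in the HERPUD1 window, at bases -117 to -107, and in none of the other 7; 15 of all 27305 windows held it (0.0549%). The ERSE (CCAAT and CCACG with 9 bases between them; 0.0806% of all windows), the UPRE (TGACG directly followed by TGG; 0.795%) and an ATF4 composite site (TGATG and AAT with 1 base between them; 1.02%) were matched in 0 of the 8 windows. The core CCACG alone, which is part of both ERSE forms and overlaps the ERSE-II match in HERPUD1, was in 6 of the 8, in 32 of the 41 windows of other degradation genes (78%) and in 37.9% of all windows. EDEM2 and DERL2 were the members without it. Windows of 4 genes are printed 5′ to 3′ on the gene's strand, with ERSE-II and core matches in capitals (CGTGG is the core on the opposite strand). HERPUD1 (chr16:56931892-56932191, plus strand) had the largest thapsigargin response. Its complex partners are SYVN1 (chr11:65134470-65134769, minus strand) and SEL1L (chr14:81533804-81534103, minus strand). OS9 (chr12:57693882-57694181, plus strand) had a response among the smallest. The OS9 window held 3 cores, the most of the 8 windows. Whether matches and responses are linked was not tested.
HERPUD1: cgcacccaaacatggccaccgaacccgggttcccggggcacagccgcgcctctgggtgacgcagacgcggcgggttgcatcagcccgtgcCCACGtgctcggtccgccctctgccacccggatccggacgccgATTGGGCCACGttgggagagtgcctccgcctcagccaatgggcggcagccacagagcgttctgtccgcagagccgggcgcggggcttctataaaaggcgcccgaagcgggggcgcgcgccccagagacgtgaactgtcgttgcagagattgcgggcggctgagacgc
SYVN1: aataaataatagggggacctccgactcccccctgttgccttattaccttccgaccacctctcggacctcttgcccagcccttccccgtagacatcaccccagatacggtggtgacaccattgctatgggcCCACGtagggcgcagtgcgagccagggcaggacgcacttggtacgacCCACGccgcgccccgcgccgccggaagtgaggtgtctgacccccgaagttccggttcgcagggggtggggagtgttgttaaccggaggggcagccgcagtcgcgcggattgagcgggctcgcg
SEL1L: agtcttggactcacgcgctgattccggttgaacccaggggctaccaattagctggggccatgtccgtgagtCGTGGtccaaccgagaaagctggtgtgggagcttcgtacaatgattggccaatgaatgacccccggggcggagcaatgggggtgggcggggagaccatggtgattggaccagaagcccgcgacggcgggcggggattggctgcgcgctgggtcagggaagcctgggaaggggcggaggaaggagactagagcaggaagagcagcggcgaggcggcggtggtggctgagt
OS9: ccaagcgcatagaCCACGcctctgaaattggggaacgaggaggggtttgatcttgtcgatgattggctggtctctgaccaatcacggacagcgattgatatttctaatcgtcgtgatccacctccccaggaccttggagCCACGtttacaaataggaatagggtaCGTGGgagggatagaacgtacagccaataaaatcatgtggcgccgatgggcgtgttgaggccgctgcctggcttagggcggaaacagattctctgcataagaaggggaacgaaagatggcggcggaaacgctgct
A match describes letters in a window and shows no bound factor. Only exact strings were searched, so a window without a match may still hold a variant of an element. The HERPUD1 window, for example, holds CCAAT and CCACA with 9 bases between them, close to the ERSE string. On the opposite strand it holds TGATG and AAC with 1 base between them, close to the ATF4 composite string.

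Each library held between 8922439 and 16519239 gene reads. All 5 epithelial markers were expressed in every group, the fibroblast marker DCN was at 0 in all libraries, and PTPRC, CD3E and LYZ were each under a mean of 10. Other listed markers were present: the immune marker CD68 lay between 71 and 173 normalized counts. Of the endothelial markers, PECAM1 lay between 55 and 158 and CDH5 between 22 and 176. The fibroblast marker COL1A2 lay between 0.81 and 76. The part of these markers in the results was not tested. COL1A1, a gene of fibroblasts that some carcinoma lines also express, lay between 998 and 3123 normalized counts, and its part in the results was not tested. STIM1 had 272, 353 and 305 normalized counts in GemR siSTIM1 thapsigargin libraries and 390.3, 356 and 401 in GemR siSTIM1 vehicle libraries. It had 6079, 6307 and 6174 in GemR siCont thapsigargin libraries and 4976, 6294 and 6401 in GemR siCont vehicle libraries. Par thapsigargin libraries had 423, 421 and 448, and Par vehicle libraries 444, 447 and 481. STIM1 was thus low in both GemR siSTIM1 groups and in both Par groups, and GemR siCont stood apart from them without overlap. Within their groups, the deviations of GemR siSTIM1 thapsigargin replicate 1 and GemR siCont vehicle replicate 1 fell with transcript length across 12419 genes (Spearman's rho -0.526 and -0.610; the other 16 libraries lay between -0.352 and 0.559). Results that change call without these 2 libraries are given both ways.

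Levels per kilobase of transcript allow a rough comparison between genes. They used the length of 1 annotated transcript per gene and depend on that choice. The transcript used had 2691 bases for OS9 and 3144 for SYVN1, while the annotated exons cover 5169 and 5496 bases. In vehicle, HERPUD1 and SYVN1, the ligase of the complex, were close: their per-kilobase ratio was 0.894 ± 0.0537 in GemR siSTIM1, 0.873 ± 0.106 in GemR siCont and 0.884 ± 0.0835 in Par (SD, n = 3 each). In thapsigargin that ratio was 6.78 ± 0.243 in GemR siSTIM1, 6.28 ± 0.232 in GemR siCont and 6.44 ± 0.167 in Par. HERPUD1 took 57.4%, 53.3% and 59.6% of the summed per-kilobase level of the members in thapsigargin, in the same order of groups, against 8.47%, 6.86% and 8.24% in vehicle. OS9 had the highest per-kilobase level of the 10 genes in every vehicle group, with 983 in GemR siSTIM1, 1249 in GemR siCont and 1191 in Par, and DERL1 was next in each. DERL3, the third human derlin, had almost no counted reads: 18 over all 18 libraries, with 0 to 3 in each. Of the exon bases annotated to DERL3, 77% also lie in exons of SMARCB1 on the opposite strand, and the library kit does not mark strand. Reads of the shared bases cannot be assigned with certainty. The low count therefore does not show that DERL3 was silent, and no fold is given. Other overlaps were smaller: of their own exon bases, OS9 shared 13.5% and EDEM1 9.7% with antisense transcripts, and SYVN1 shared 7.2% with FAU and 6.5% with MRPL49. DERL1 shared 5.6% with TBC1D31, and DERL2 shared 4.7% with MIS12. Relative to Par vehicle, the mean log2 level of MIS12 was 1.571, 1.472 and 2.165 in GemR siSTIM1, GemR siCont and Par thapsigargin libraries. It was 0.044 and -0.0083 in GemR siSTIM1 and GemR siCont vehicle libraries. The part of MIS12 in the DERL2 values was not tested.

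**Figure D1:**
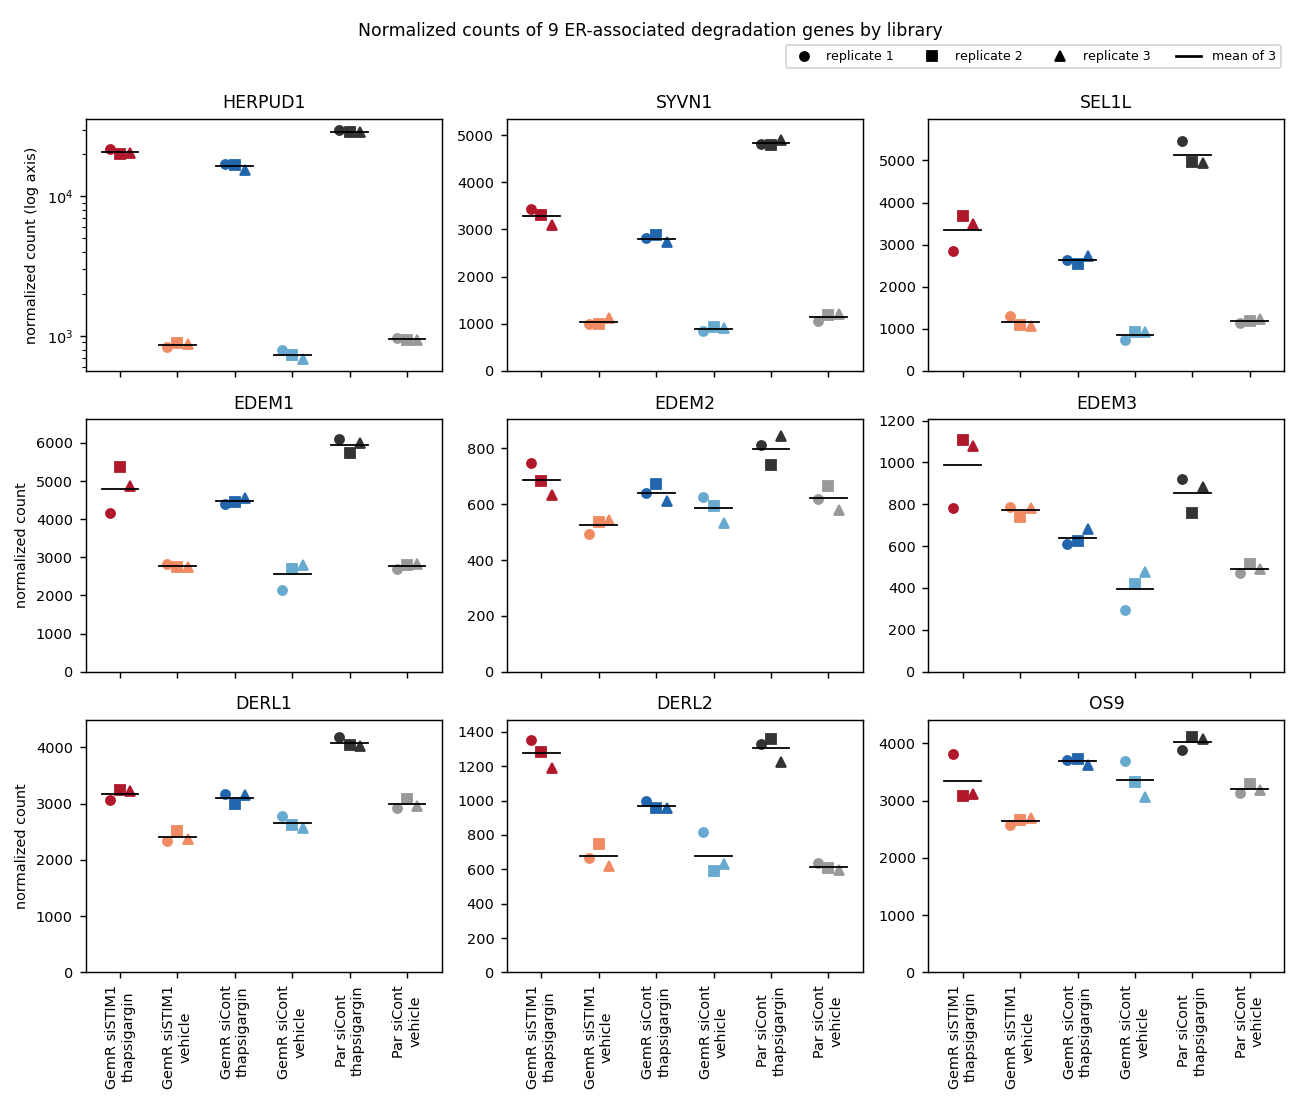
Normalized counts (y axis; log axis for HERPUD1, linear from 0 elsewhere) of the 9 tested genes in 18 libraries (x axis, 6 groups of 3); symbols are replicates and lines are means. Thapsigargin libraries of HERPUD1, SYVN1, SEL1L and EDEM1 lie above all vehicle libraries, and within thapsigargin these 4 genes are highest in Par; EDEM3 has its highest libraries in GemR siSTIM1.

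Thapsigargin raised the core of the HRD1 complex in all 3 backgrounds, and HERPUD1 far more than its partners. HERPUD1, a membrane protein with a ubiquitin-like domain that joins the HRD1 complex, had 21907, 20212 and 20363 normalized counts in GemR siSTIM1 thapsigargin libraries, against 834, 890 and 879 in GemR siSTIM1 vehicle libraries. It had 17192, 16901 and 15503 in GemR siCont thapsigargin libraries, against 792, 731 and 679 in GemR siCont vehicle libraries. It had 29804, 28964 and 28741 in Par thapsigargin libraries, against 976, 940 and 937 in Par vehicle libraries. No thapsigargin library overlapped any vehicle library. The log2 fold changes were 4.58 ± 0.06 in GemR siSTIM1, 4.49 ± 0.06 in GemR siCont and 4.94 ± 0.06 in Par (± standard error of limma's fit here and for every log2 fold change; adjusted p = 1.3e-20, 1.9e-20 and 3.3e-21). Among the 13096 tested genes these ranked 1, 10 and 4 from the top.

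SYVN1 encodes HRD1, the ubiquitin ligase itself. It had 3438, 3305 and 3099 normalized counts in GemR siSTIM1 thapsigargin libraries, against 999, 1000 and 1114 in vehicle. In GemR siCont it had 2811, 2888 and 2727 with thapsigargin, against 850, 939 and 912 with vehicle. In Par it had 4817, 4785 and 4892 with thapsigargin, against 1064, 1177 and 1218 with vehicle. The log2 fold changes were 1.66 ± 0.07 in GemR siSTIM1, 1.64 ± 0.07 in GemR siCont and 2.07 ± 0.07 in Par (adjusted p = 4.1e-13, 4.4e-13 and 7.7e-15). SEL1L, the adaptor that holds HRD1 stable and links it to the lectins, had 2846, 3676 and 3493 normalized counts in GemR siSTIM1 with thapsigargin, against 1312, 1103 and 1073 with vehicle. It had 2632, 2541 and 2736 in GemR siCont with thapsigargin, against 725, 931 and 937 with vehicle. It had 5469, 4970 and 4948 in Par with thapsigargin, against 1143, 1195 and 1245 with vehicle. Thapsigargin and vehicle did not overlap in any background for either gene. SEL1L rose by 1.52 ± 0.10, 1.62 ± 0.10 and 2.10 ± 0.10 in GemR siSTIM1, GemR siCont and Par (adjusted p = 1.2e-09, 2.6e-10 and 5.1e-12). The 2 libraries that stand apart by transcript length were the lowest of their groups for SEL1L, EDEM3 and EDEM1, the members with the longest transcripts (7925, 6898 and 6146 bases), and the highest for OS9 (2691 bases).

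SEL1L and SYVN1 followed each other closely. Their mean log2 levels, each centred over the 6 groups, differed by a root mean square of 0.086, the second smallest of all pairs of members after EDEM2 and DERL1 (0.059), and the per-kilobase ratio of SEL1L to SYVN1 had group means between 0.373 and 0.447. Single libraries ran from 0.328 to 0.521. This likeness over 6 group means is a description.

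**Figure D2:**
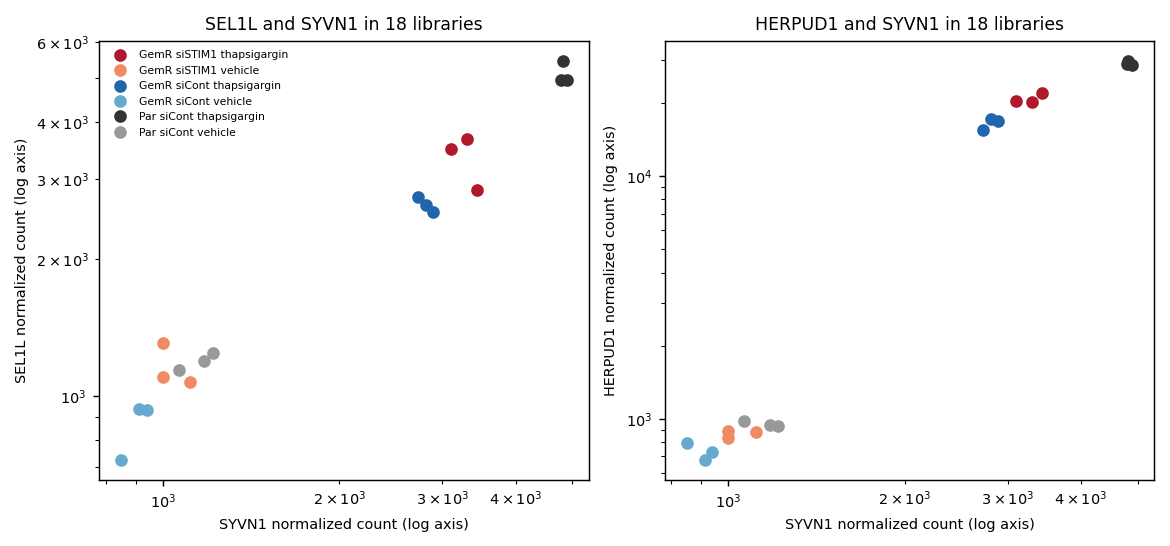
SEL1L (left) and HERPUD1 (right) against SYVN1 in 18 libraries, normalized counts on log axes, coloured by group. SEL1L moves with SYVN1, at a per-kilobase ratio from 0.328 to 0.521 in single libraries. HERPUD1 climbs far more steeply between the vehicle and thapsigargin libraries.

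The mannose-trimming EDEM proteins, which mark misfolded glycoproteins for disposal, responded less. EDEM1 had 4176, 5358 and 4867 normalized counts in GemR siSTIM1 with thapsigargin, against 2833, 2734 and 2755 with vehicle. In GemR siCont it had 4390, 4456 and 4553 with thapsigargin, against 2151, 2693 and 2810 with vehicle. In Par it had 6103, 5733 and 6000 with thapsigargin, against 2701, 2791 and 2829 with vehicle. EDEM1 rose in all 3 backgrounds without overlap, by 0.78 ± 0.09, 0.82 ± 0.09 and 1.10 ± 0.09 on the log2 scale (adjusted p = 1.0e-06, 4.3e-07 and 6.7e-09). EDEM2, which is known to start the trimming, ranged from 632 to 749 normalized counts in GemR siSTIM1 with thapsigargin, against 495 to 542 with vehicle. It ranged from 612 to 674 in GemR siCont with thapsigargin, against 533 to 627 with vehicle, and from 739 to 843 in Par with thapsigargin, against 578 to 665 with vehicle. Its log2 fold changes were 0.39 ± 0.09 in GemR siSTIM1 (adjusted p = 0.0020), 0.14 ± 0.09 in GemR siCont (adjusted p = 0.24) and 0.36 ± 0.09 in Par (adjusted p = 0.0022). Only the GemR siCont libraries overlapped.

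EDEM3 is another trimming enzyme of this family. It had 781, 1107 and 1078 normalized counts in GemR siSTIM1 with thapsigargin, against 789, 740 and 783 with vehicle. In GemR siCont it had 612, 624 and 683 with thapsigargin, against 293, 419 and 474 with vehicle, and in Par 922, 758 and 881 with thapsigargin, against 470, 514 and 493 with vehicle. The thapsigargin change was 0.72 ± 0.14 in GemR siCont (adjusted p = 0.00056) and 0.79 ± 0.14 in Par (adjusted p = 0.00019). In GemR siSTIM1 it was 0.34 ± 0.14 and missed the threshold (adjusted p = 0.091), and the test of the difference between the GemR siSTIM1 and GemR siCont responses did not pass either (-0.38 ± 0.20, adjusted p = 0.29). There, replicate 1 with thapsigargin was within the vehicle range; without the 2 libraries that stand apart by length the change was 0.50 and was called (adjusted p = 1.6e-05), and the authors' deposited table gave 0.36 with an adjusted p of 0.049.

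The derlins are rhomboid-like membrane proteins that help substrates leave the ER. DERL2 had 1351, 1285 and 1186 normalized counts in GemR siSTIM1 with thapsigargin, against 668, 746 and 619 with vehicle. In GemR siCont it had 999, 956 and 956 with thapsigargin, against 814, 589 and 629 with vehicle, and in Par 1330, 1359 and 1224 with thapsigargin, against 639, 609 and 596 with vehicle. Its thapsigargin change was 0.91 ± 0.10, 0.53 ± 0.10 and 1.08 ± 0.10 in these backgrounds, called in each (adjusted p = 6.5e-07, 0.00029 and 4.1e-08). DERL1 started from a far higher level and rose less, by 0.40 ± 0.05 in GemR siSTIM1, 0.23 ± 0.05 in GemR siCont and 0.45 ± 0.05 in Par (adjusted p = 1.4e-05, 0.0034 and 2.1e-06). Its libraries ranged from 3068 to 3236 in GemR siSTIM1 with thapsigargin, against 2342 to 2513 with vehicle. They ranged from 2995 to 3172 in GemR siCont with thapsigargin, against 2572 to 2780 with vehicle, and from 4028 to 4177 in Par with thapsigargin, against 2930 to 3090 with vehicle. OS9, the lectin that hands trimmed glycoproteins to SEL1L, had 3811, 3079 and 3123 in GemR siSTIM1 with thapsigargin, against 2581, 2662 and 2691 with vehicle. In GemR siCont it had 3707, 3726 and 3620 with thapsigargin, against 3690, 3334 and 3061 with vehicle, and in Par 3884, 4118 and 4076 with thapsigargin, against 3132, 3294 and 3189 with vehicle. OS9 rose by 0.33 ± 0.08 in GemR siSTIM1 (adjusted p = 0.0029) and by 0.33 ± 0.08 in Par (adjusted p = 0.0018). In GemR siCont, where the libraries overlapped, the change was 0.14 ± 0.08 (adjusted p = 0.18); without the 2 libraries that stand apart it was 0.21 and was called (adjusted p = 0.0019).

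In all, 8 of the 9 tested members rose with thapsigargin in GemR siSTIM1, where 12.5% of all tested genes were called higher, 11.9% lower and 24.3% in either direction. In GemR siCont 7 of 9 rose, beside 17.9% of all genes higher, 15.8% lower and 33.6% called. In Par 9 of 9 rose, beside 20.5% of all genes higher, 19.7% lower and 40.1% called. No member fell in any background. The median change over the 9 members was 0.78 in GemR siSTIM1, 0.72 in GemR siCont and 1.08 in Par, against -0.01, -0.03 and -0.02 over all tested genes. For the same libraries, the regulator XBP1 rose by 1.77 ± 0.08, 1.70 ± 0.08 and 1.51 ± 0.08, in the same order of backgrounds, and HSPA5, the main ER chaperone, rose 6.05-fold in GemR siSTIM1, 4.94-fold in GemR siCont and 6.93-fold in Par (standard error 0.06 on the log2 scale in each).

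**Figure D3:**
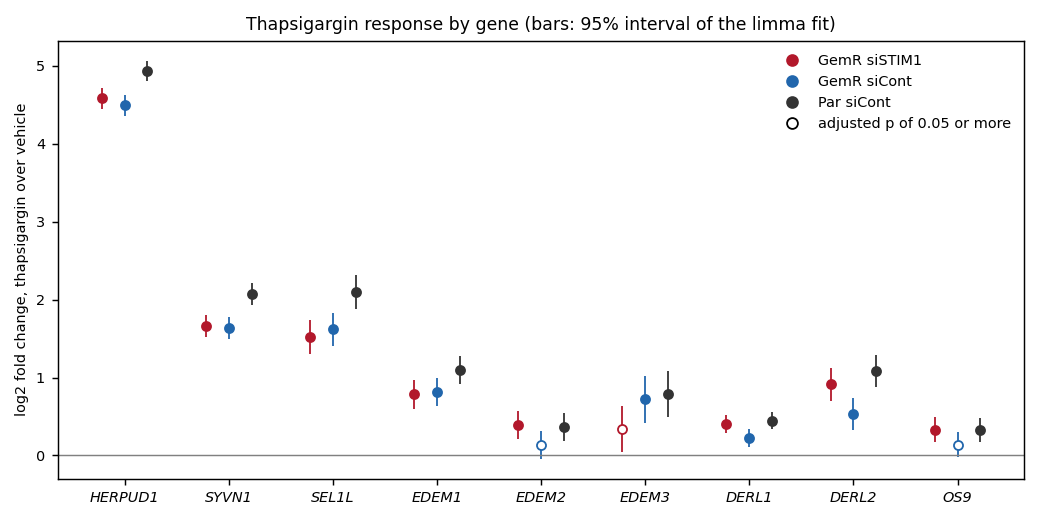
Thapsigargin over vehicle for each gene in GemR siSTIM1, GemR siCont and Par (y axis, log2 fold change with the 95% interval of limma's fit; x axis, gene). HERPUD1 stands at 4.49 to 4.94, SYVN1 and SEL1L at 1.52 to 2.10, and the open circles (EDEM2 and OS9 in GemR siCont, EDEM3 in GemR siSTIM1) did not pass the threshold.

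Several members were called lower in GemR siCont cells than in Par cells, in vehicle and in thapsigargin. More were called in thapsigargin, but a count of calls does not compare the sizes of the differences. In vehicle, 4 of 9 members (44.4%) were lower in GemR siCont than in Par and 0 were higher, while 20.1% of all tested genes were called lower, 18.1% higher and 38.2% in all. HERPUD1 had -0.38 ± 0.06 (adjusted p = 9.4e-05), SEL1L -0.48 ± 0.10 (adjusted p = 0.0012), SYVN1 had -0.36 ± 0.07 (adjusted p = 0.00032) and DERL1 had -0.17 ± 0.05 (adjusted p = 0.019). For each of these 4 genes the GemR siCont vehicle libraries lay below all Par vehicle libraries. The 4 were picked by their calls, and genes without overlap were not counted over all tested genes. The DERL1 call was lost when any one of GemR siCont vehicle replicate 2, GemR siCont vehicle replicate 3 or Par vehicle replicate 2 was left out (adjusted p up to 0.076). EDEM3 had -0.34 ± 0.14 (adjusted p = 0.065) and was called without GemR siCont vehicle replicate 3 (-0.49, adjusted p = 0.0099). The other members were EDEM1 at -0.13 ± 0.09, EDEM2 at -0.09 ± 0.09, DERL2 at 0.13 ± 0.10 and OS9 at 0.06 ± 0.08, none of them called.

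In thapsigargin, 8 of 9 members were lower in GemR siCont than in Par, while 25% of all tested genes were called lower, 23.2% higher and 48.2% in all. SEL1L had -0.96 ± 0.10 (adjusted p = 3.6e-07), HERPUD1 -0.82 ± 0.06 (adjusted p = 3.2e-09) and SYVN1 -0.78 ± 0.07 (adjusted p = 1.5e-08). DERL2 had -0.42 ± 0.10 (adjusted p = 0.0015), EDEM1 -0.41 ± 0.09 (adjusted p = 0.00072), DERL1 -0.39 ± 0.05 (adjusted p = 8.2e-06) and EDEM2 -0.31 ± 0.09 (adjusted p = 0.0051). EDEM3 had -0.41 ± 0.14 (adjusted p = 0.023), a call that was lost without GemR siCont thapsigargin replicate 1 or 2, or without Par thapsigargin replicate 1 or 3 (adjusted p up to 0.089). The GemR siCont and Par thapsigargin libraries did not overlap for any of the 8. These were picked by their calls, and the share without overlap over all tested genes was not counted. OS9 had -0.13 ± 0.08 (adjusted p = 0.18) and was called without the 2 libraries that stand apart (-0.13, adjusted p = 0.017), neither of which enters this difference, so that its spread estimate alone changed. The summed level of 5 epithelial markers also differed between these groups, at 48519 to 51506 in GemR siCont thapsigargin libraries and 62133 to 65985 in Par thapsigargin libraries, and its part in these results was not tested. HSPA5 had -0.77 ± 0.06 and XBP1 -0.42 ± 0.08 in the same comparison.

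Several members were higher in GemR siSTIM1 than in GemR siCont by less than 2-fold, and OS9 and DERL1 were lower in vehicle. In vehicle, 4 of 9 members were higher and 2 lower in GemR siSTIM1 than in GemR siCont, and 42% of all tested genes were called, 20.9% higher and 21.1% lower, so that the members' 66.7% stands beside 42% of all genes. With quantile-normalized values the members split as 4 higher and 1 lower. On 17 libraries, edgeR and DESeq2 each called 4 members, 3 higher and 1 lower. Both also called fewer of all tested genes than limma. EDEM3 had the widest difference: 789, 740 and 783 normalized counts in GemR siSTIM1 vehicle libraries against 293, 419 and 474 in GemR siCont vehicle libraries (0.99 ± 0.14, adjusted p = 2.5e-05; 0.79 without the 2 libraries that stand apart). SEL1L had 0.43 ± 0.10 (adjusted p = 0.0028), HERPUD1 0.24 ± 0.06 (adjusted p = 0.0045) and SYVN1 0.20 ± 0.07 (adjusted p = 0.020). The groups did not overlap for any of these 4 genes, which were picked by their calls. How many of all tested genes lacked overlap was not counted. SYVN1 was no longer called without GemR siSTIM1 vehicle replicate 3 (adjusted p = 0.11), without GemR siCont vehicle replicate 1 (adjusted p = 0.063) or by edgeR (adjusted p = 0.17). OS9 had -0.34 ± 0.08 (adjusted p = 0.0015) and DERL1 -0.14 ± 0.05 (adjusted p = 0.043). The DERL1 call was lost under several alternatives, among them the fit without the 2 libraries that stand apart (-0.11, adjusted p = 0.085), leaving out GemR siSTIM1 vehicle replicate 1 or 3, or leaving out GemR siCont vehicle replicate 1 or 2 (adjusted p up to 0.14).

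In thapsigargin, 5 of 9 members were higher in GemR siSTIM1 than in GemR siCont and 0 were lower, beside 17.7% of all tested genes called higher, 18.9% lower and 36.6% in all. EDEM3 had 0.61 ± 0.14 (adjusted p = 0.0022), DERL2 0.39 ± 0.10 (adjusted p = 0.0041), HERPUD1 0.33 ± 0.06 (adjusted p = 0.00032), SEL1L 0.33 ± 0.10 (adjusted p = 0.017) and SYVN1 0.22 ± 0.07 (adjusted p = 0.013). None of the 5, which were picked by their calls, overlapped between the groups. Overlap was not counted over all tested genes. SEL1L lost its call without GemR siSTIM1 thapsigargin replicate 2 or 3 or GemR siCont thapsigargin replicate 2 (adjusted p up to 0.093), and SYVN1 without GemR siSTIM1 thapsigargin replicate 1 or GemR siCont thapsigargin replicate 3 (adjusted p up to 0.054). Without the 2 libraries that stand apart, EDEM1 was also called higher (0.19, adjusted p = 0.0027; 0.10 ± 0.09 with them) and OS9 lower (-0.25, adjusted p = 0.00021; -0.15 ± 0.08 with them). For HERPUD1, SEL1L and SYVN1 the order of the groups in thapsigargin was GemR siCont, GemR siSTIM1, then Par, with no overlap between neighbours. No other tested member showed this order without overlap. EDEM3 was highest in GemR siSTIM1, and OS9 was lowest there. These 3 genes were picked for the order, and how many of all tested genes share it was not counted. HSPA5 was higher by 0.38 ± 0.06 in GemR siSTIM1 thapsigargin libraries, while XBP1 differed by 0.01 ± 0.08. The GemR siSTIM1 libraries also differed in the summed level of the epithelial markers, which was 38106 to 46435 in GemR siSTIM1 thapsigargin libraries and 48519 to 51506 in GemR siCont thapsigargin libraries; its part in these results was not tested.

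**Figure D4:**
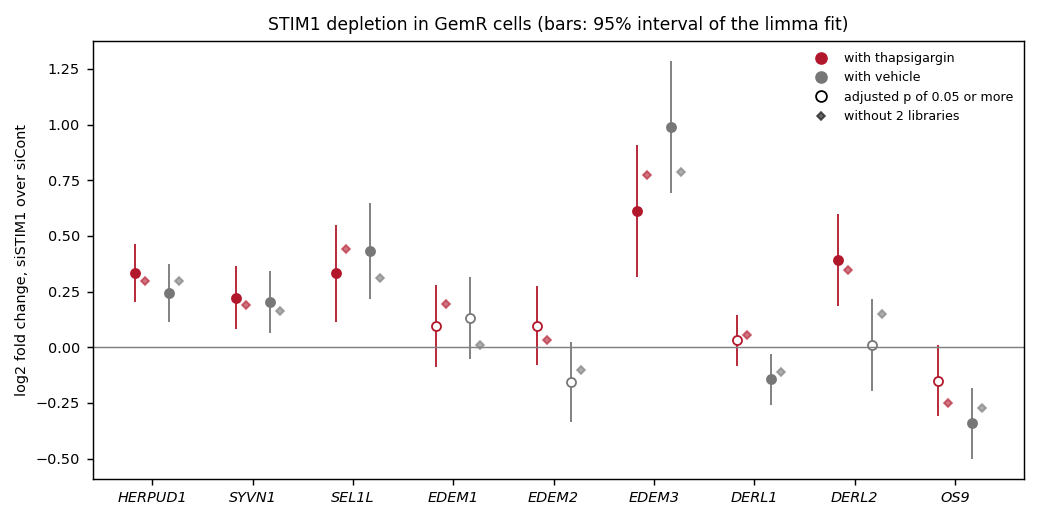
GemR siSTIM1 over GemR siCont for each gene (y axis, log2 fold change with the 95% interval of limma's fit; x axis, gene), with thapsigargin (red) and with vehicle (grey); open circles did not pass the threshold, and diamonds are the values without GemR siSTIM1 thapsigargin replicate 1 and GemR siCont vehicle replicate 1. EDEM3 lies highest in both (0.61 with thapsigargin, 0.99 with vehicle), and OS9 and DERL1 lie below 0 in vehicle.

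The differences between thapsigargin responses were tested as interactions. The response of GemR siCont was smaller than that of Par for 4 of 9 members and larger for 0, beside 7.66% of all tested genes called smaller, 7.14% larger and 14.8% in all. DERL2 had -0.55 ± 0.14 (adjusted p = 0.010), SEL1L -0.48 ± 0.15 (adjusted p = 0.031), HERPUD1 -0.44 ± 0.09 (adjusted p = 0.0016) and SYVN1 -0.43 ± 0.09 (adjusted p = 0.0038). The SEL1L call was lost in 7 of the 12 fits that each left out 1 library (adjusted p up to 0.086): without GemR siCont thapsigargin replicate 1 or 2, GemR siCont vehicle replicate 2 or 3, Par thapsigargin replicate 1, or Par vehicle replicate 1 or 2. Another 2 members were called under some alternatives. EDEM1 was called without the 2 libraries that stand apart (-0.40, adjusted p = 6.1e-05; -0.28 ± 0.12 and adjusted p = 0.15 with them) and without GemR siCont vehicle replicate 1 alone (adjusted p = 0.0040). DERL1 was called without the 2 libraries (-0.19, adjusted p = 0.034; -0.22 ± 0.08 and adjusted p = 0.060 with them), by DESeq2 on 17 libraries (-0.22, adjusted p = 0.026), which called 5 members, and with a minimum mean of 50 (adjusted p = 0.049). On the log2 scale a smaller response means a smaller ratio: HERPUD1 rose 22.5-fold in GemR siCont and 30.6-fold in Par.

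The response of GemR siSTIM1 was smaller than that of Par for 3 of 9 members and larger for 0, beside 4.93% of all tested genes called smaller, 3.05% larger and 7.98% in all. SEL1L had -0.58 ± 0.15 (adjusted p = 0.019), SYVN1 -0.41 ± 0.09 (adjusted p = 0.011) and HERPUD1 -0.35 ± 0.09 (adjusted p = 0.018). Without Par thapsigargin replicate 1 SYVN1 was the 1 member still called (HERPUD1 had an adjusted p of 0.053 and SEL1L of 0.061). With edgeR on 17 libraries SEL1L was the 1 member called (HERPUD1 had an adjusted p of 0.070 and SYVN1 of 0.061). SEL1L was also lost without GemR siSTIM1 thapsigargin replicate 1, GemR siSTIM1 vehicle replicate 1 or Par vehicle replicate 1 (adjusted p up to 0.064). EDEM1 was called without the 2 libraries that stand apart (-0.22, adjusted p = 0.027; -0.32 ± 0.12 and adjusted p = 0.12 with them). This comparison shares its Par libraries with the one before, and the pair are given side by side only.

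Between GemR siSTIM1 and GemR siCont, 0 of 9 members had a response that differed at the threshold by limma, and edgeR and DESeq2 also called 0; 4.41% of all tested genes were called (1.5% larger and 2.9% smaller). At an unadjusted p under 0.05 there were 3 (DERL2 at 0.38 ± 0.14, EDEM2 at 0.25 ± 0.12 and DERL1 at 0.17 ± 0.08, with adjusted p of 0.13, 0.25 and 0.21). The 95% intervals of the difference were -0.09 to 0.28 for HERPUD1, -0.18 to 0.22 for SYVN1 and -0.41 to 0.21 for SEL1L. EDEM3 had -0.38 ± 0.20, with an interval from -0.80 to 0.04, and -0.014 without the 2 libraries that stand apart.

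**Figure D5:**
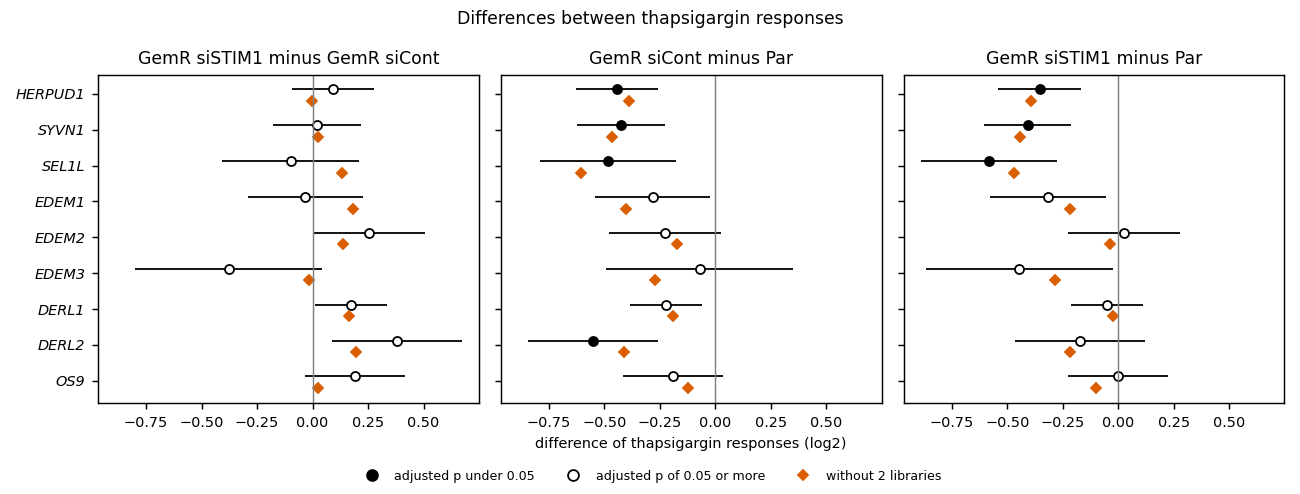
Difference between 2 thapsigargin responses for each gene (x axis, log2, with the 95% interval of limma's fit; y axis, gene) in 3 panels; filled circles passed the threshold, and diamonds are the values without GemR siSTIM1 thapsigargin replicate 1 and GemR siCont vehicle replicate 1. HERPUD1, SYVN1 and SEL1L lie left of 0 in both panels against Par (-0.35 to -0.58) and have intervals that include 0 between GemR siSTIM1 and GemR siCont.

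The rest of the pathway was read from 53 other degradation genes listed by role, of which 52 were matched in the table and 51 were tested. With thapsigargin, 11 rose and 6 fell in GemR siSTIM1, and 16 rose and 5 fell in GemR siCont. In Par 18 rose and 9 fell. The calls were 33.3%, 41.2% and 52.9% of the list, beside 24.3%, 33.6% and 40.1% of all tested genes. Quantile normalization split the Par calls as 14 and 14, and edgeR split those in GemR siSTIM1 as 10 and 2. Of the 8 substrate recognition genes, 6 rose and 0 fell in each background. DNAJB9, an ER co-chaperone of HSPA5 also called ERdj4, rose by 3.28 ± 0.10 in GemR siSTIM1, 3.11 ± 0.10 in GemR siCont and 3.42 ± 0.10 in Par. SDF2L1, an ER protein that works with such co-chaperones, rose by 2.53 ± 0.13, 2.28 ± 0.13 and 2.59 ± 0.13. Of the 10 extraction genes, 3, 4 and 6 rose and 0 fell. Of the 8 accessory genes of the HRD1 complex, 0, 1 and 1 rose and 3, 1 and 3 fell. In GemR siSTIM1, 2 of the 3 falls were close to the threshold, JKAMP (-0.30 ± 0.11, adjusted p = 0.048) and FAM8A1 (-0.30 ± 0.11, adjusted p = 0.049). Leaving out 1 library ended the call in 4 of 6 fits for JKAMP and in 5 of 6 for FAM8A1, and neither was called by edgeR (adjusted p = 0.21 and 0.13) or DESeq2 (adjusted p = 0.18 and 0.10). FAM8A1 was also lost without the 2 libraries that stand apart (-0.22, adjusted p = 0.13). UBL4A, a ubiquitin-like protein of the cytosolic BAG6 complex, fell by 0.74 in GemR siSTIM1, by 0.78 in GemR siCont and by 1.25 in Par on the log2 scale.

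Between the lines, 7 of the 8 substrate recognition genes were lower in GemR siCont than in Par in vehicle and 7 of 8 in thapsigargin, and 0 were higher. Over all tested genes, 20.1% were called lower in vehicle and 25% in thapsigargin. The whole list split as 10 higher and 13 lower in vehicle and as 16 and 16 in thapsigargin. These calls were 45.1% and 62.7% of the list, beside 38.2% and 48.2% of all tested genes. In GemR siSTIM1 over GemR siCont 8 were higher and 15 lower in vehicle, and 8 higher and 10 lower in thapsigargin. Those shares were 45.1% and 35.3% of the list, near the 42% and 36.6% of all tested genes. RNF5, another ER membrane ligase, had -0.86 ± 0.10 in vehicle and -0.57 ± 0.10 in thapsigargin in GemR siSTIM1 over GemR siCont (adjusted p = 1.2e-06 and 0.00012). YOD1, a deubiquitinating enzyme that works with VCP, showed the widest interaction of the list. Its mean was 689 ± 114 in GemR siSTIM1 with thapsigargin and 602 ± 32.6 with vehicle, 1976 ± 143 in GemR siCont with thapsigargin and 840 ± 128 with vehicle, and 1154 ± 90.3 in Par with thapsigargin and 1040 ± 95.7 with vehicle (SD, n = 3 each). The YOD1 response of GemR siSTIM1 minus that of GemR siCont was -1.06 ± 0.17 (adjusted p = 0.00078; -0.79 without the 2 libraries that stand apart). VIMP, also called SELENOS, an ER membrane protein that binds VCP and derlins, was the only other gene of the list called there (0.53 ± 0.14, adjusted p = 0.034; 0.28 without the 2 libraries that stand apart). Leaving out 1 library ended the VIMP call in 7 of 12 fits (adjusted p up to 0.090). Of the list, 3.92% was called for this difference, beside 4.41% of all tested genes. The response of GemR siCont minus that of Par was larger for 4 genes and smaller for 5 (17.6%, beside 14.8% of all tested genes). That of GemR siSTIM1 minus that of Par was larger for 3 and smaller for 2 (9.8%, beside 7.98%).

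Among the tested genes other than the members, those whose 6 group means were most like a member's, after centring on the log2 scale, were named as a description. HERPUD1 had no near match: SESN2 and DDIT3, known targets of the ATF4 branch of the stress response, came closest with root mean square differences of 0.355 and 0.375. SEL1L was closest to ERO1B, an ER oxidase, at 0.093. EDEM1 was closest to BRD2 at 0.048, DERL2 to TMEM263 at 0.052 and OS9 to SSR4, a subunit of the ER translocon-associated complex, at 0.046. VCP was among the 3 nearest genes of both EDEM2 (0.045) and DERL1 (0.040), and STT3A, a catalytic subunit of the ER glycosylation enzyme, was the nearest to DERL1 (0.032). EDEM3 had FAM53C nearest, at 0.114, and SYVN1 had BTG1, at 0.099.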

How the data were processed

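The 18 libraries (6 groups of 3) held polyadenylated RNA, made from 500 ng of RNA with a kit that does not mark strand, per the labels' protocols. Alignment and counting tools in the submitters' processing notes are STAR 2.6.0c and HTSeq 0.11.1, beside DESeq2 and the build hg38, and the annotation used is not given in the sources used here. Normalized counts were deposited by the authors and treated as a signal: gene reads divided by 1 size factor per library, since every positive value was a whole multiple (100% within 0.01) of the smallest step in its library. Deposited by the authors too were tables with log2 fold changes and adjusted p-values, quoted once. Recovered reads ranged from 8922439 to 16519239 per library; over the 54 combinations of a tested member and a group, the coefficient of variation was 1.14% to 23.5% (median 4.86%).

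Of 26485 genes, the 13096 whose mean reached 10 entered the tests as log2(normalized count + 1). Group means were fitted by limma 3.58.1 with a trended prior in R 4.3.3, which left 12 residual degrees of freedom. Of 10 two-sided comparisons, 3 set 1 thapsigargin response against another, and the Benjamini-Hochberg adjustment of p-values ran over all tested genes, with calls made under 0.05. Fold changes on this scale understate those of low genes. The procedure was run on simulated counts, drawn independently for each library and without a trend by transcript length. Those runs do not test the spread between the real libraries. Count tests with edgeR 4.0.16 and DESeq2 1.42.0 on the recovered reads left out GemR siSTIM1 vehicle replicate 3, whose step was too near 1, and used 17 libraries. The members and lists were chosen with earlier results of these data known. Named genes were the members, STIM1, XBP1, HSPA5, up to 3 called genes of the other degradation list in each direction per comparison with a mean of at least 50, and the 3 genes most like each member; not all are named. Of that list, MARCH6 appeared only under a date name and was left out, and SEL1L2 was under the filter. Transcript lengths and exons came from GENCODE 29 and promoters from RefSeq.

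The same results were recomputed with edgeR, with DESeq2, with limma without trend or with a robust prior, with a 2-fold minimum, with a block for the replicate number, from the compared groups alone, without each library in turn, without the 2 libraries with a length trend, at minimum means of 50 and 0, at pseudocounts of 0.5 and 5, and after quantile normalization or median centring. Replicates of a group were compared and none was a duplicate. Figures were drawn with matplotlib 3.10.9.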

Additional observations from a re-analysis of the deposited data

Results flagged for a closer look

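The thapsigargin responses of 4 members differed between GemR siCont and Par by a test of the difference itself: HERPUD1 by -0.44, SEL1L by -0.48, SYVN1 by -0.43 and DERL2 by -0.55 on the log2 scale (GemR siCont minus Par). Those of 3 members differed between GemR siSTIM1 and Par, HERPUD1 by -0.35, SEL1L by -0.58 and SYVN1 by -0.41 (GemR siSTIM1 minus Par). HERPUD1, SEL1L and SYVN1 stand in both, and the Par libraries are shared. In both, SEL1L lost its call in some fits that left out 1 library. For GemR siSTIM1 minus Par, edgeR called 1 member, and so did limma without Par thapsigargin replicate 1. No member was in this position between GemR siSTIM1 and GemR siCont by limma, edgeR or DESeq2, where 3 of 9 had an unadjusted p under 0.05.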

How the results depend on the processing

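All members called with thapsigargin kept their direction under every alternative run. A 2-fold minimum left 3 members in GemR siSTIM1, 3 in GemR siCont and 5 in Par, and 0 in the other 7 comparisons; of the other degradation genes it left 6, 4 and 7 in these responses, 1 for siSTIM1 over siCont in thapsigargin and in the 2 differences of responses that involve GemR siCont, and 0 elsewhere. Fitting only the groups compared gave 13 other genes instead of 23 (GemR over Par, vehicle), 3 members instead of 6 and 10 other genes instead of 23 (siSTIM1 over siCont, vehicle), and 5 members instead of 3 (response of siSTIM1 minus Par). Without the 2 libraries with a length trend the other genes numbered 28 instead of 18 (siSTIM1 over siCont, thapsigargin) and 16 instead of 9 (response of GemR siCont minus Par). For the response of siSTIM1 minus siCont, 1 other gene instead of 2 was called with no filter, edgeR, limma without trend or only the groups compared (1 to 3 with 1 library left out). For siSTIM1 minus Par, edgeR called 1 member and 3 other genes instead of 3 and 5 (1 to 3 and 3 to 6 with 1 library left out), and DESeq2 split the other genes as 2 larger and 3 smaller. The cause was not tested.

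No called value changed sign. Of uncalled values, DERL2 (-0.014) and OS9 (-0.0044) did so for GemR over Par in vehicle without the 2 libraries, and DERL2 for siSTIM1 over siCont in vehicle with median-centred values (-0.0040). For the response of siSTIM1 minus siCont, EDEM1 did so with median-centred values (0.0073), and HERPUD1 (-0.0022), SEL1L (0.13) and EDEM1 (0.18) without the 2 libraries. For siSTIM1 minus Par, DERL1 did so with quantile normalization (0.041), and EDEM2 (-0.037) and OS9 (-0.10) without the 2 libraries. With 1 library left out, the ranges crossing 0 were -0.014 to 0.22 (DERL2) and -0.0044 to 0.13 (OS9) for GemR over Par in vehicle, -0.083 to 0.15 (DERL2) for siSTIM1 over siCont in vehicle, -0.27 to 0.076 (EDEM3) for GemR siCont minus Par, -0.17 to 0.022 (SEL1L), -0.016 to 0.071 (SYVN1) and -0.12 to 0.085 (EDEM1) for siSTIM1 minus siCont, and -0.037 to 0.086 (EDEM2) and -0.10 to 0.055 (OS9) for siSTIM1 minus Par. The 2-fold minimum was applied to counts of calls and not to single values. Of the 1872 other alternative values of single members, 1770 kept their direction and side of the threshold, 50 lost a call, 19 gained one and 33 changed sign.

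Counts over all genes moved by over 1.5 times with a 2-fold minimum (833 instead of 5253 for thapsigargin in Par, for example), with only the groups compared (2848 instead of 4402 for thapsigargin in GemR siCont, 3129 instead of 5000 for GemR over Par and 3315 instead of 5496 for siSTIM1 over siCont in vehicle, 316 instead of 577 for siSTIM1 minus siCont and 2164 instead of 1045 for siSTIM1 minus Par), without the 2 libraries (3852 instead of 1938 for GemR siCont minus Par, and 2138 for siSTIM1 minus Par), and with edgeR (346 for siSTIM1 minus siCont). With the replicate number as a block the members called were 8, 7 and 9 for thapsigargin in GemR siSTIM1, GemR siCont and Par, 5 and 8 for GemR over Par in vehicle and thapsigargin, 5 and 5 for siSTIM1 over siCont, and 4, 0 and 3 for the differences of responses. Libraries with the same number did not steadily deviate together (correlations -0.177 to 0.225, all over 0.1 in 0 of 7 comparisons). Of 21 pairings, 9 were closest to their own number. The deviations also followed transcript length in some libraries, so this check cannot exclude a pairing by number. With 3 libraries a group, the standard error of a thapsigargin response was 0.05 (DERL1) to 0.14 (EDEM3) on the log2 scale, which limits the size that could be called.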
